A study of Sus scrofa domesticus with 4 samples.

Results

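This account concerns the transcripts of the pig anterior pituitary that were less abundant in pregnant than in cyclic gilts on every one of 4 two-colour arrays. They were chosen by the measured ratios themselves: a probe had to be well above background in both dyes and free of the scanner's non-uniformity flag on all 4 arrays, and its log2 ratio of pregnant over cyclic had to be at or below -0.5 on each array. Of 43603 probes on the array 16397 met the first 2 conditions, and 51 of these (0.311%) met the rule. The 51 probes stand for 37 sequence accessions, of which 6 carried a gene symbol. Because the rule used the pregnancy ratio on all 4 arrays, the ratios below are a description with no test, and nothing is supported by them.

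The animals were 8 mature gilts, young female pigs of a cross of Large White and Polish Landrace weighing about 110 kg. In the pregnant group 4 gilts had been mated naturally and carried conceptuses when they were killed on days 12 to 13, and in the cyclic group 4 gilts were killed on the same days of the estrous cycle. The labels count 8 individuals, so each array held 1 pregnant and 1 cyclic gilt and no RNA was shared between arrays. By the sample labels, arrays 1 and 3 had the pregnant gilt's RNA in Cy3, and the dyes were exchanged on arrays 2 and 4. The labelling protocol can also be read as Cy3 for pregnant RNA throughout. Under that reading 0 of the 51 probes would meet the rule, because the ratios of arrays 2 and 4 would change sign. The deposited log2 ratios follow the dyes of the sample labels.

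In this window the conceptuses signal their presence and the corpora lutea are kept, while in the cycle the lutea soon regress. The anterior pituitary holds several hormone-secreting cell types beside endothelial, stromal and immune cells. Their genes respond over different times: immediate early genes such as FOS are switched on briefly after a stimulus, while genes for enzymes, channels and the cytoskeleton usually change more slowly. In whole-tissue RNA, fewer cells of a type and less RNA per cell cannot be told apart.

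As markers of the labelled tissue, all 7 hormone genes of the anterior pituitary (PRL, GH1, POMC, CGA, LHB, FSHB and TSHB) were well above background in all 8 gilts. Of the 2 markers of the posterior lobe and hypothalamus, OXT was well above background in all 8 gilts and AVP was not. Well above background were 60.7% to 71.8% of pregnant and 47.5% to 71.6% of cyclic spots, with 0 saturated spots. The cyclic share of 47.5% was that of array 4, where 5420 probes failed the filters although they passed on the other 3 arrays, against 277 to 532 for the other arrays. Repeat spots of 1 probe differed little within an array: over the probes with 5 good spots (9 to 22 per array) the median SD of their log2 ratios was 0.08 to 0.16. Of the member probes 0 had repeat spots, so the spot error of the members is not known. The median SD of the 37 accessions over the 4 arrays was 0.33, with a lowest of 0.11 and a highest of 1.25.

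The balance of lower and higher probes depended on the scaling. With processed signals centred on the median, 51 probes were lower throughout, while 171 of the 16397 (1.04%) were at or above 0.5 on every array. The counts were 102 lower and 110 higher without centring, 95 and 114 with loess on the processed signals, and 30 and 24 after normexp and loess, so the lower share ran from 23.0% to 55.6%. Under the first scaling, the counts at a distance of 0.4 were 93 lower and 307 higher, at 0.8 they were 8 and 29, and at 1 they were 3 and 13. With array 1, 2, 3 or 4 left out, 94, 113, 127 and 329 probes were at or below -0.5 on the other 3 arrays. Over all 16397 probes 42.6% had a negative mean ratio and the median was 0.06. Around the threshold, KLF11 (highest ratio -0.50), the transcript ENSSSCT00000002016 (-0.50) and AQP3 (-0.50) lay just inside it. The nearest probes outside were those of CX057037 (-0.49), ATP2A2 (-0.49), the calcium pump of the endoplasmic reticulum, and UBD (-0.49), a ubiquitin-like modifier.

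**Figure D1:**
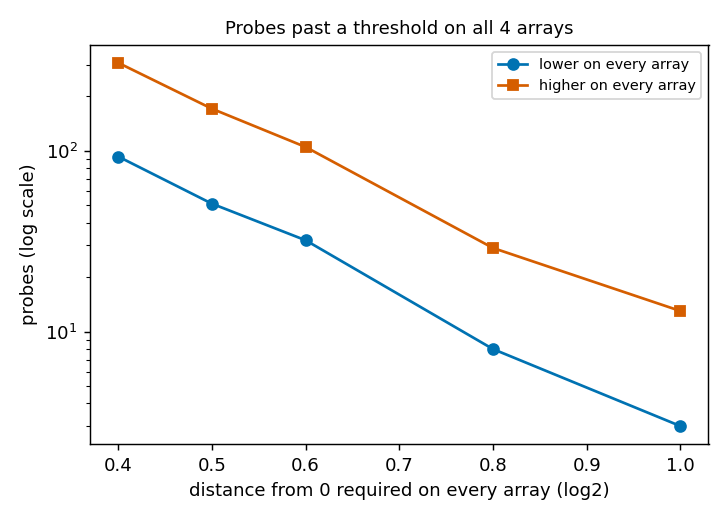
Number of probes (log scale) whose log2 ratio was at least the stated distance from 0 on all 4 arrays, lower (circles) or higher (squares) in pregnant gilts. At 0.5 there were 51 lower and 171 higher probes with processed signals centred on the median, the scaling plotted; the 2 counts lie closer together under the other scalings.

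A limma fit with a dye term covered the probes that were well above background in every pregnant or in every cyclic gilt. It called 0 of these 21627 probes (0%) at an adjusted p threshold of 0.05, and all 51 members were among those tested. Without adjustment 3904 probes lay under that threshold, of which 1647 were lower in pregnant gilts. The same fit called 3401 probes without array 1, 4 without array 3 and 0 without array 2 or array 4. The smallest limma adjusted p among the members was 0.22. This fit uses the same arrays and the same contrast as the rule, but with ratios after normexp and loess. It is not a separate test of the members.

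Of the transcription factors, FOS (NM_001123113), a partner in the AP-1 factor, had log2 ratios of -2.22, -0.71, -2.33 and -0.67 on arrays 1 to 4. The levels of the 4 cyclic gilts ran from 3.70 to 4.45, on a log2 scale on which the median probe of the channel is 0. The pregnant gilts stood at 1.79 (array 1), 2.95 (array 2), 1.92 (array 3) and 2.79 (array 4). The groups thus did not overlap, and the lower pregnant pair was the one labelled with Cy3. The mean ratio was -1.48 ± 0.92 (SD, n = 4), 2.79-fold lower, from 1 probe.

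KLF11 (NM_001134346), a zinc finger factor of the Krüppel-like family that is induced by TGF-beta, had ratios of -0.50, -1.08, -1.76 and -0.68. Its mean was -1.01 ± 0.56 (SD, n = 4), 2.01-fold lower, and the cyclic levels of 2.20 to 2.72 lay above the pregnant levels of 0.76 to 1.80. The array has 2 other KLF11 probes with means of -1.32 and -1.38. The first missed the rule through a ratio of -0.20 on array 1, and the second did not pass the filters.

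As a group, immediate early genes were divided in direction. Of 28 genes on that list 12 had a probe and 10 passed the filters; 5 had a negative and 5 a positive mean ratio, and the median was 0.10, against 0.00 over the 1503 named genes that passed. JUN, which pairs with FOS in AP-1, was at 0.42 ± 0.25 (SD, n = 4). NR4A3, an orphan nuclear receptor, was at 2.24 ± 1.43 and positive on all arrays. BTG2, an antiproliferative gene, was at -0.31 ± 0.36. FOS was the 1 list gene with a member probe. On all arrays 2 of the 10 (FOS and BTG2) were negative and 4 positive, where of the 1503 named genes 155 were negative and 151 positive throughout.

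TMOD3 (NM_214294) encodes tropomodulin 3, which caps the pointed end of actin filaments. Its ratios were -2.08, -1.66, -1.58 and -1.88, so the arrays lay close together whichever dye the pregnant RNA carried. The mean was -1.80 ± 0.23 (SD, n = 4), 3.49-fold lower, again from 1 probe. The cyclic gilts had levels of 4.73, 4.92, 4.80 and 5.65 and the pregnant gilts 2.72, 3.19, 3.03 and 3.52. The lowest cyclic level was 1.21 above the highest pregnant level, a wider separation than that of the other 5 named genes, for which the same difference ran from -0.07 to 0.76.

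Other genes of actin filaments stayed near 0. Of 36 on the list, TMOD3 included, 17 were on the array and 16 passed the filters. Means were negative for 10 of the 16 (62.5%, against 49.8% of the 1503 named genes that passed) and positive for 6. The median was -0.07. TPM1, a tropomyosin, was at -0.21 ± 0.26 (SD, n = 4). CAPZA1, a capping protein of the opposite filament end, was at -0.16 ± 0.16, and CFL1, a filament-severing cofilin, at 0.12 ± 0.31. TMOD3 was the 1 gene of the list that was negative on all 4 arrays, where 155 of the 1503 named genes were.

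Of the remaining named genes, CAT (NM_214301) encodes catalase, which breaks down hydrogen peroxide. Its member probe had ratios of -0.97, -0.85, -1.38 and -0.60, with a mean of -0.95 ± 0.33 (SD, n = 4), 1.93-fold lower. The cyclic levels of 1.97 to 2.64 did not overlap the pregnant levels of 1.00 to 1.80. The 8 other CAT probes gave a smaller difference: the 2 that passed the filters had means of -0.36 and -0.19, and the 6 that did not ran from -0.37 to -0.16. The ratio of catalase thus depended on the probe, by more than the SD of any of the 3 passing probes over the arrays.

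AQP3 (NM_001110172), a membrane channel for water and glycerol, had ratios of -1.48, -0.77, -0.50 and -0.88 and a mean of -0.91 ± 0.41 (SD, n = 4), 1.88-fold lower. Its cyclic levels were 0.98, 1.06, 0.92 and 2.12, and the pregnant level of array 4, 0.99, lay within them. The dimmest spot of the member probe was 1.43 times the local background, and the probe's mean after normexp and loess was -0.39. The second AQP3 probe, which did not pass the filters, had a mean of -1.28 and was negative on all arrays.

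GGTA1P (NM_213810) is the table's symbol for the pig gene of alpha-1,3-galactosyltransferase, which makes the galactose epitope of pig cell surfaces. Its ratios were -0.71, -0.69, -0.60 and -0.92, with a mean of -0.73 ± 0.13 (SD, n = 4), 1.66-fold lower. The groups overlapped by 0.05, since the pregnant gilt of array 4 (2.19) was above the cyclic gilt of array 1 (2.14). The second probe had a mean of -0.68 and missed the rule through a ratio of -0.41 on array 3.

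**Figure D2:**
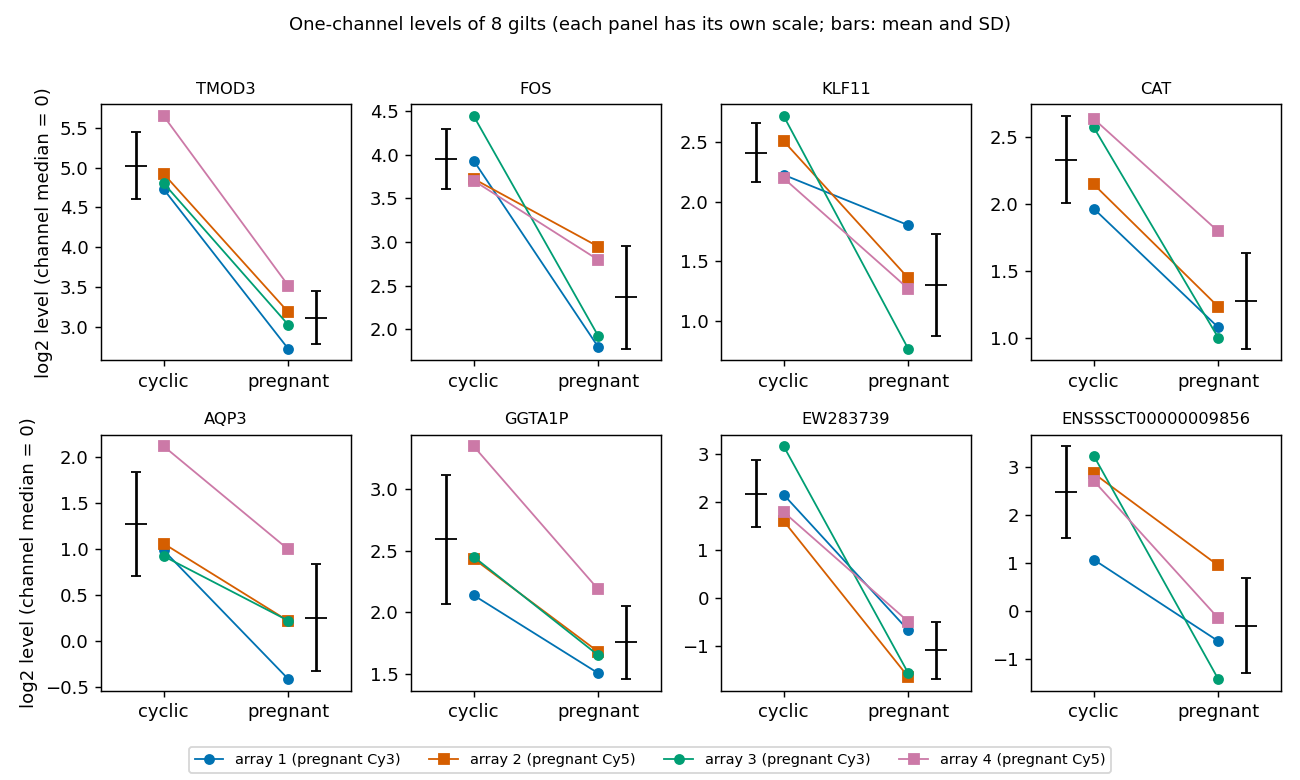
One-channel log2 levels (channel median = 0) of the 4 cyclic and 4 pregnant gilts for the 6 named genes and the 2 unnamed transcripts with the lowest mean ratios. Lines join the 2 gilts of an array, circles and squares mark the dye of pregnant RNA, and black bars are mean and SD. For TMOD3, FOS, KLF11, CAT, EW283739 and ENSSSCT00000009856 the groups did not overlap.

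A single transcript supplied 13 of the 51 probes. ENSSSCT00000019670, an Ensembl transcript that the gene tables used here do not name, was measured by 24 probes, of which 13 met the rule, 10 passed the filters but not the rule, and 1 did not pass. The medians of the 13 probes were -2.15, -0.97, -0.74 and -2.06 on arrays 1 to 4. Within an array the 13 differed by SDs of 0.11 to 0.32, far less than the arrays differed from each other. Arrays 1 and 4, the low ones, have opposite dye orientations.

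The 10 other passing probes of that transcript had means of -1.72 to -1.09, about as low as the -1.69 to -1.28 of the 13 members. What kept them out was array 3, where their ratios were above -0.5 and reached 0.42. For the brightest member probe the cyclic levels were 11.41, 11.17, 10.77 and 12.47 and the pregnant levels 9.27, 10.26, 10.02 and 9.98, so the groups did not overlap. Its mean ratio was -1.47 ± 0.89 (SD, n = 4), 2.76-fold lower. The spot of 1 of the 13 probes on array 4 lay in a dim area of that slide, where its level differed by -7.48 log2 units from its mean level on the other arrays. Without the dim area 50 probes of the same 37 accessions met the rule.

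X16951, a sequence record without a symbol in the tables, was measured by 14 probes, of which 3 met the rule. The medians of the 3 were -1.10, -0.66, -0.63 and -0.67, with array 1 lowest. The 6 other passing probes had means of -0.72 to -0.47 and the 5 that did not pass had -0.76 to -0.68. All 14 were negative on every array. The brightest member probe had a mean of -0.71 ± 0.27 (SD, n = 4), 1.64-fold lower, and its groups overlapped by 0.09.

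**Figure D3:**
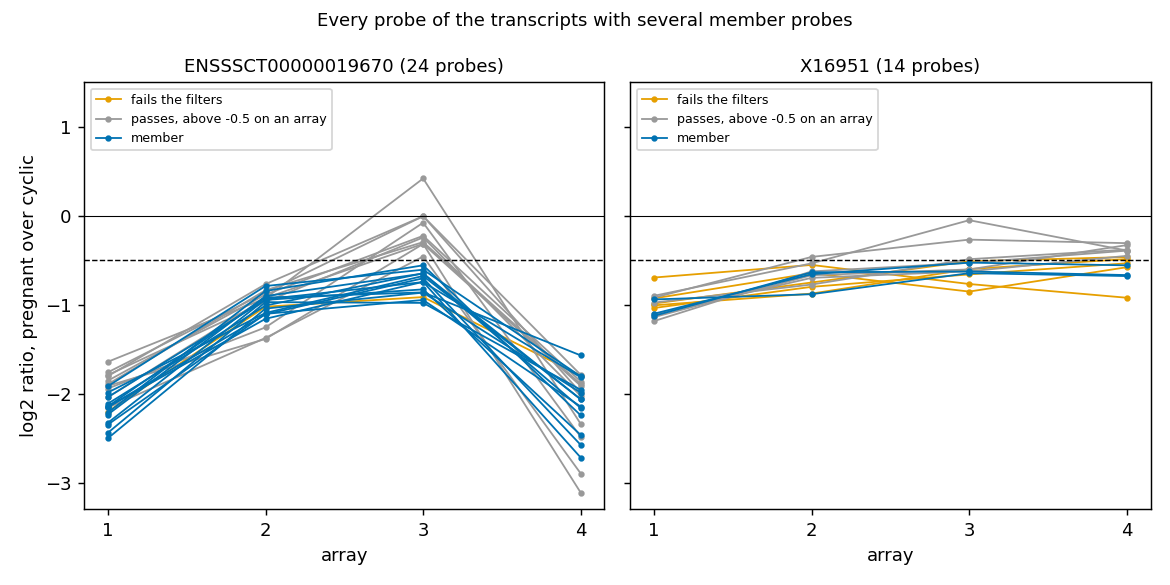
Log2 ratio of every probe of ENSSSCT00000019670 (24 probes) and X16951 (14 probes) on arrays 1 to 4, 1 line a probe, coloured by whether it met the rule. For ENSSSCT00000019670 every probe was lower on arrays 1 and 4 than on arrays 2 and 3, and array 3 separates members from the other passing probes. The X16951 probes were lowest on array 1, except for a probe that was lowest on array 4 (-0.92).

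With processed signals the lowest mean ratios belonged to unnamed transcripts, whereas after normexp and loess TMOD3 (-1.61) was below both of the first 2 described here. EW283739 had ratios of -2.91, -3.18, -4.54 and -2.04, a mean of -3.17 ± 1.03 (SD, n = 4) and 8.98-fold lower levels. The cyclic gilts stood at 2.15, 1.60, 3.16 and 1.79 and the pregnant gilts at -0.68, -1.65, -1.57 and -0.50, with a gap of 2.10 between the groups. Its dimmest spot was 1.27 times the local background, so the pregnant levels were close to the limit of measurement.

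ENSSSCT00000009856 had ratios of -1.78, -1.85, -4.47 and -2.62 and a mean of -2.68 ± 1.25 (SD, n = 4), 6.41-fold lower. The groups were 0.12 apart, with the cyclic gilt of array 1 at 1.07 and the pregnant gilt of array 2 at 0.94. Its dimmest spot was 1.33 times the local background, and its mean after normexp and loess was -1.27. EW283739, ENSSSCT00000009856 and TMOD3 were the 3 probes at or below -1 on every array.

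EW335954 followed at -1.62 ± 0.80 (SD, n = 4), with ratios of -1.18, -2.12, -2.46 and -0.74. NP276891 averaged -1.38 ± 0.92 and divided otherwise, with ratios of -2.44, -1.86, -0.66 and -0.55, so that its first 2 arrays were the low ones. For both the levels of the groups overlapped by more than 1 log2 unit. XM_001927861 (-1.33 ± 0.63), ENSSSCT00000014573 (-1.31 ± 0.83), CK449524 (-1.29 ± 0.64) and EW622478 (-1.18 ± 0.45) were lowest on array 3, at -2.21, -2.53, -2.18 and -1.79. Each of these 4 also overlapped between groups.

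ENSSSCT00000011563, AK233014, AJ958750 and TC479731 had means between -1.07 and -1.05. Of these 4, AK233014 and AJ958750 had groups that did not overlap. ENSSSCT00000002016 averaged -0.78 ± 0.21 (SD, n = 4), but its 2 other probes, both passing the filters, had means of -0.16 and -0.11. The other 16 accessions had means between -0.99 (ENSSSCT00000010552) and -0.69 (ENSSSCT00000006557), with SDs from 0.11 to 0.42. Of these 16, XM_001928936 had levels that did not overlap between the groups. In all 31 accessions had no symbol: 11 Ensembl transcripts, 5 TC contigs, 3 predicted RefSeq transcripts and 12 other sequence records.

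**Figure D4:**
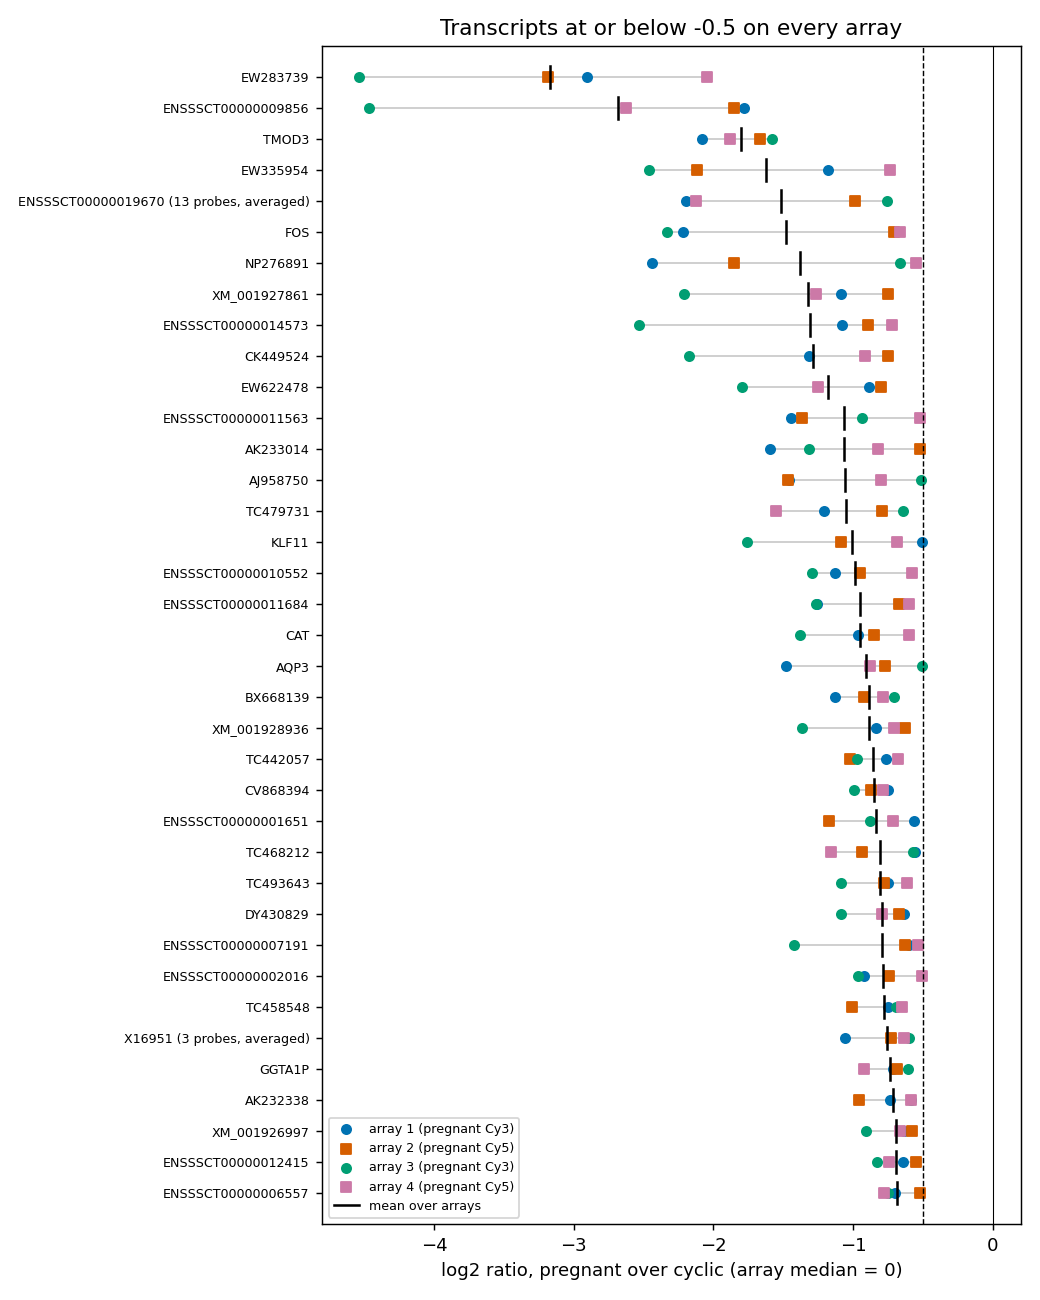
Log2 ratio of pregnant over cyclic on each array for the 37 accessions, ordered by mean (black bar). Circles mark arrays with pregnant RNA in Cy3 and squares arrays with it in Cy5, the dashed line is the threshold of -0.5, and the means run from -3.17 to -0.69.

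Non-overlap of the groups was not part of the rule, which compares gilts within arrays, though both rest on the same contrast. Of the 51 members 16 had all 4 pregnant levels below all 4 cyclic levels, where 172 of the 16397 passing probes did (1.05%); nothing is read from this share, since the ratios had been selected low. Of the 16 probes 6 were probes of ENSSSCT00000019670, and counted once per accession by its brightest probe 10 of 37 did not overlap.

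The arrays did not contribute equally. Counted once per accession, 20 of 37 had their lowest ratio on array 3, 7 on array 1 and 5 each on arrays 2 and 4, while 14 had their highest on array 4. Array 3 also had the widest spread over the 16397 passing probes, with an SD of 0.87 against 0.43 to 0.49. At or below -0.5 were 16.8%, 6.7%, 17.6% and 5.6% of these probes on arrays 1 to 4. For 9 accessions, FOS and CAT among them, both arrays with pregnant RNA in Cy3 were lower than both with it in Cy5, and for 1 (TC468212) the reverse held. In AQP3, GGTA1P, TMOD3, TC479731 and ENSSSCT00000019670 arrays 1 and 4 were both below arrays 2 and 3. Arrays of opposite dye orientation hold different gilts, so a dye effect and a difference between gilts cannot be told apart for any 1 gene.

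Markers of dividing cells were lowest on array 3, like 20 of the 37 accessions, and on array 2 as well they were lower than on arrays 1 and 4. TOP2A, CDK1 and CCNB1, the 3 of 6 such markers that could be measured, had a median ratio of -0.52, -1.90, -2.75 and -0.13 on arrays 1 to 4. Stromal markers (4 of 9 measured) had medians of -0.64, -0.32, -0.71 and 0.00, endothelial markers (3 of 6) 0.02, -0.20, -0.65 and 0.21, and myeloid markers (3 of 6) -0.21, 0.37, -0.24 and 0.14. Erythrocyte markers had 0 named probes. None of the markers was itself a member. Their part in the ratios of the members was not tested. The hormone genes also had 0 members, where 6 of the 1503 named genes had a member probe. PRL, the hormone gene with the lowest mean, was at -0.79 ± 0.59 (SD, n = 4) with -0.15 on array 2. Hormone genes could differ widely between arrays. GH1 had ratios of -0.72, 1.02, -1.99 and 2.07 on arrays 1 to 4, and TSHB had -0.34, -5.01, 6.42 and -1.39. Of imprinted genes 9 of 20 were measured, with 7 negative means (77.8%, against 49.8% of the 1503 named genes), a median of -0.15 and 0 members; PEG10 was lowest at -0.60 ± 0.33 and above -0.5 on arrays 2 and 3.

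Many members were dim. On at least 1 of its 8 spots, 23 of the 51 member probes (45.1%) had less than 2 times the local background, against 32.9% of the 16397 passing probes. Counted by accession, 22 of 37 had every member probe under that limit on some spot. The ratios of the members depended on the background correction. With loess applied to the processed signals 48 of the 51 still met the rule. With normexp at an offset of 50, which adds a constant to every signal, followed by loess, 18 did, from 5 accessions: TMOD3, X16951, EW283739, ENSSSCT00000009856 and ENSSSCT00000019670. The median of the 51 means was -1.06 with processed signals and -0.59 after normexp and loess, where EW283739 had -1.19 in place of -3.17. TMOD3 kept -1.61. All 51 remained below 0 on every array under both loess settings.

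**Figure D5:**
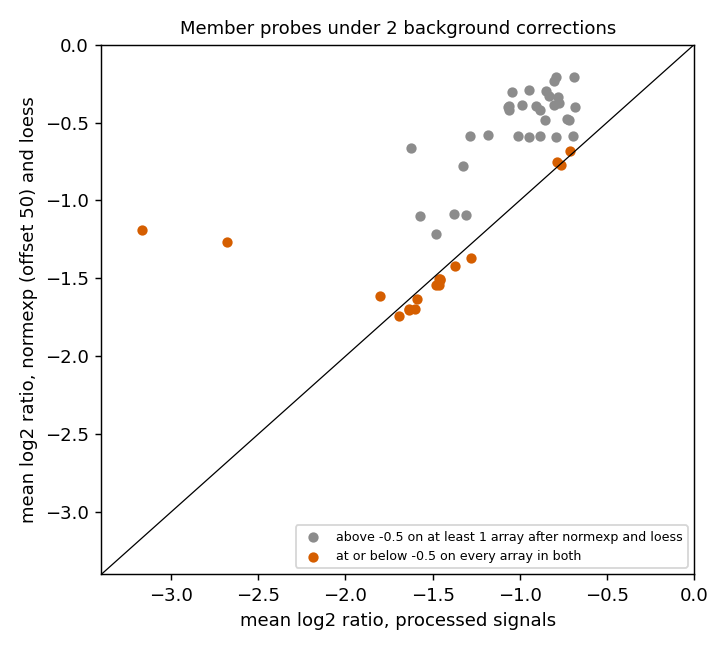
Mean log2 ratio of each of the 51 member probes with processed signals (x axis) and after normexp with an offset of 50 and loess (y axis); the line marks equal values. The 18 orange probes met the rule under both, and the other 33 lie above the line, closer to 0 on the y axis.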

How the data were processed

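Anterior pituitary RNA of 4 pregnant and 4 cyclic gilts was compared on 4 two-colour Agilent arrays of design 026440. Per the file headers, the deposited scanner files hold spot and background intensities read by Agilent Feature Extraction 10.7.3.1, and processed intensities that are background-subtracted and dye-normalised within an array. The deposited value table holds log2 ratios; its 43553 probes with 1 spot differed from log2 ratios of the processed signals, turned by the sample labels' dyes, by at most 3.09e-06, and it is not centred. How the authors made this table is not stated in the labels or headers.

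Log2 ratios of processed signals were averaged over the spots of a probe and centred on each array's median. A probe with several spots passed only if all did. One-channel levels were centred on the channel median, so their differences deviate slightly from the ratios. Symbols came from RefSeq accessions matched without versions to a pig gene table (Sscrofa11.1): 5578 of 43603 probes, 2459 genes. The limma fit (limma 3.58.1, R 4.3.3) used median signals after normexp with an offset of 50 and loess. It had a dye term and Benjamini-Hochberg adjustment and was checked on simulated data. Spots flagged as non-uniform or as population outliers were left out of it. Tested were probes with at least 3 arrays left that were well above background in every pregnant or in every cyclic gilt.

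Named were all symbols among the members, accessions with several member probes, the 12 others with the lowest means and the 3 probes on each side of the threshold. A gene was shown by its brightest member probe, and list genes by their brightest passing probe. The members and lists were chosen with earlier results of these data known. Alternatives were other normalizations, centring, filters, thresholds, the other dye reading and leaving out each array. Loess on processed signals and leaving out the dim area of array 4 were added after seeing the data. That area is the tiles of 10 rows by 5 columns in which at least 25% of probes that were 5 times their background on arrays 1 to 3 were lost. Promoter motifs and sequences were not analysed here.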

Additional observations from a re-analysis of the deposited data

Results flagged for a closer look

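Among 63 sets of 4 values (ratios, pregnant levels and cyclic levels of the named transcripts) 5 were flagged by Dixon's ratio. That ratio is the gap of a gilt to the nearest value divided by the range of the set. In the 5 sets it exceeded Dixon's critical value for 4 samples. Chance would mark about 1 set in 20. The cyclic gilt of array 4 was high for AQP3 (2.12, the others 0.92 to 1.06), X16951 (5.99, the others 5.10 to 5.23) and CK449524 (2.98, the others 1.39 to 1.65). For these transcripts the pregnant gilt of array 4 was also the highest of its group, at 0.99, 5.19 and 1.82. Whether the array or the gilt was unusual was not tested. The cyclic gilt of array 2 was low for AK233014 (-0.013, the others 0.67 to 0.81), with a Dixon ratio only just above the critical value. The pregnant gilt of array 2 was low for TC479731 (-1.81, the others -0.06 to 0.10).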

How the results depend on the processing

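The count of 51 depended on most settings. It was 30 after normexp and loess (18 of the 51 among them), 95 with loess on the processed signals (48 shared), 102 without centring (48 shared), and 209 with no filter on dim or outlier spots. Thresholds of -0.4, -0.6 and -1 gave 93, 32 and 3. With pregnant RNA read as Cy3 on every array 12 probes met the rule. Of these 0 were shared, since under that reading every member is positive on arrays 2 and 4. Leaving out 1 array gave 94 (without array 1) to 329 (without array 4). Of the latter, 83 had no usable spot on array 4. The count of members with groups that did not overlap rose from 16 to 26 when channels were centred on the 75th percentile. The limma count of 0 became 2 with processed signals (DT331878 and DN837572, both no members) and 2 without the dye term (DT331878 and TMOD3), and ran from 0 to 3401 on leaving out 1 array, the highest without array 1; the cause was not tested. The count of 171 higher probes became 24 after normexp and loess and 110 without centring, settings added for it after seeing the data. Of 21 named means, 13 moved by more than their SD under normexp and loess, with the same sign, and 0 did so under loess on the processed signals. The count was also 0 without centring and on leaving out 1 array, but neither could have given another result. Leaving out 1 of 4 arrays cannot move a mean by more than its SD. Dropping the centring shifts all means by the same amount (TMOD3 from -1.80 to -1.89), less than the smallest SD among them (GGTA1P, 0.13). The other settings were not applied to the means. The number of arrays and signals near background limit the precision.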
